A study of Mus musculus with 6 samples.

Results

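The cytosolic ribosomal protein genes encode the proteins that, with ribosomal RNA, build the 40S and 60S subunits of the ribosome outside the mitochondria. Their expression was examined in primary mouse cortical astrocytes expressing BRAF K499E (KE), a constitutively active form of the kinase BRAF that drives the ERK pathway. Members were the genes whose mean normalized count over the 6 cultures was at least 100 and whose symbol had the form of a ribosomal protein name (Rps or Rpl followed by a number, Rplp0 to Rplp2, or Rpsa). This gave 81 genes of the 55357 in the table, of which 33 were assigned to the 40S and 48 to the 60S subunit by symbol alone. The choice used the level over all cultures, not the difference between groups.

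RNA-seq was performed on 3 cultures transfected with a plasmid in which the CMV promoter drives BRAF KE carrying a FLAG tag (KE) and on 3 nontransfected cultures (NT), grown from the cortex of late-gestation C57BL/6 embryos. The labels give the genotype as K499E for KE and as naive for NT, and they give the cell type of both groups as cultured astrocyte. Total RNA was collected 48 hours after transfection, and libraries were made with a stranded mRNA kit. The titles and the treatment tag call the NT cultures nontransfected, while the protocol text in the labels of all 6 samples describes the transfection. The groups follow the titles, and the Braf levels given next differ between groups in the direction of the titles. As no group with another plasmid was compared here, transfection and BRAF KE cannot be told apart. No source says that the 3 cultures of a group were separate preparations, and the p-values therefore measure the spread between these samples, which may be technical.

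A ribosome is assembled from equal copies of most of its proteins, and the genes for them are transcribed at high levels in dividing and growing cells. Most of their mRNAs begin with an oligopyrimidine tract at the very 5′ end, called the 5′ TOP motif, through which mTOR and the RNA-binding protein Larp1 regulate their translation and stability. In astrocytes, ribosomes lie in the soma and also in fine processes, where mRNAs are translated near synapses.

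Normalized totals were 30472429 to 30895529 per culture, and the approximate depth was 24500000 to 34100000 reads, with KE replicate 2 the least deeply sequenced. Braf, the check of the labels, was 34933 to 40978 in KE and 811 to 946 in NT. Astrocyte markers were present in every culture, with summed normalized counts of 149077 to 151319 in KE and 107987 to 113021 in NT over 9 genes, of which 6 were upregulated and 1 was downregulated. All 10 microglial markers were downregulated in KE, with a median log2 fold change (log2FC) of -3.37 and summed counts of 4695 to 6466 in KE against 38669 to 44383 in NT. All 7 tested markers of the oligodendrocyte lineage were downregulated as well, with a median log2FC of -0.55. Of 7 tested neuronal markers, 2 were upregulated and 2 were downregulated (28.6% each). Of 7 tested fibroblast and vascular markers, 2 were upregulated (28.6%) and 3 were downregulated (42.9%). Among all tested genes, 25.3% were upregulated and 26.0% were downregulated.

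The starts of the members' transcripts are shown first, since the 5′ TOP motif is the sequence by which these mRNAs are recognized. The windows were taken from RefSeq on GRCm38.p6, an earlier build than the GRCm39 of the gene coordinates given further on, and 60 of the 81 members were matched. Those shown were picked from the 16 matched members whose first 5 transcribed bases were all C or T. Each window runs 5′ to 3′ on the strand of the gene from 15 bases before the annotated start to 15 bases from it on, and capitals mark the unbroken run of C and T that contains the first base of the transcript. The first 4 belong to genes that were downregulated in KE, and the last 3 to genes that were not called:
Rps6, chr4:86857353-86857382, minus strand: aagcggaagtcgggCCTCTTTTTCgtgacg
Rpl7a, chr2:26910792-26910821, plus strand: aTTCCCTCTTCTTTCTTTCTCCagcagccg
Rps18, chr17:33955651-33955680, minus strand: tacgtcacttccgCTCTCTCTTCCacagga
Rpl38, chr11:114668565-114668594, plus strand: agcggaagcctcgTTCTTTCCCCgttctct
Rps27, chr3:90213634-90213663, minus strand: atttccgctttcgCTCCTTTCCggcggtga
Rps15a, chr7:118116133-118116162, minus strand: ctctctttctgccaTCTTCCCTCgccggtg
Rps21, chr2:180257364-180257393, plus strand: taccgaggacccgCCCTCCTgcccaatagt

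Runs of pyrimidines at or near the start were found in a larger share of the members than of all genes in the promoter table. The first 5 transcribed bases were all C or T in 16 of the 60 members (26.7%), against 5.3% of the 27025 genes in the table. A run of at least 8 C or T within 50 bases on either side of the start was present in 50 of the 60 members (83.3%) and in 39.3% of all genes. Annotated starts can lie some bases from the start used in these cells, so that the stricter count misses members whose tract is a few bases away. Both features were found among downregulated members and among the rest. The 5-base run was found in 13 of 50 downregulated members and in 3 of 10 members that were not called, and the 8-base run in 42 of 50 and 8 of 10.

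Ribosomal protein genes were lower in KE than in NT across both subunits. Of the 81 members, 65 (80.2%) were downregulated and none was upregulated by limma at an adjusted p-value under 0.05, and 16 were not called. At an unadjusted p-value under 0.05, 69 were lower and 0 were higher, for which no share over all tested genes was computed. The log2FC was below 0 for all 81 members, with a median of -0.27, a fall of 17.3%, and it ranged from -0.56 for Rpl36a to -0.01 for Rpl13a. Among all 15280 tested genes, 51.3% were DEGs at the adjusted threshold, 26.0% were downregulated and 25.3% were upregulated, and the median log2FC was 0.002. In bulk RNA, fewer cells of a type and less RNA per cell cannot be told apart. The falls in microglial and oligodendrocyte-lineage markers accompanied these values, and their part in them was not tested.

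**Figure D1:**
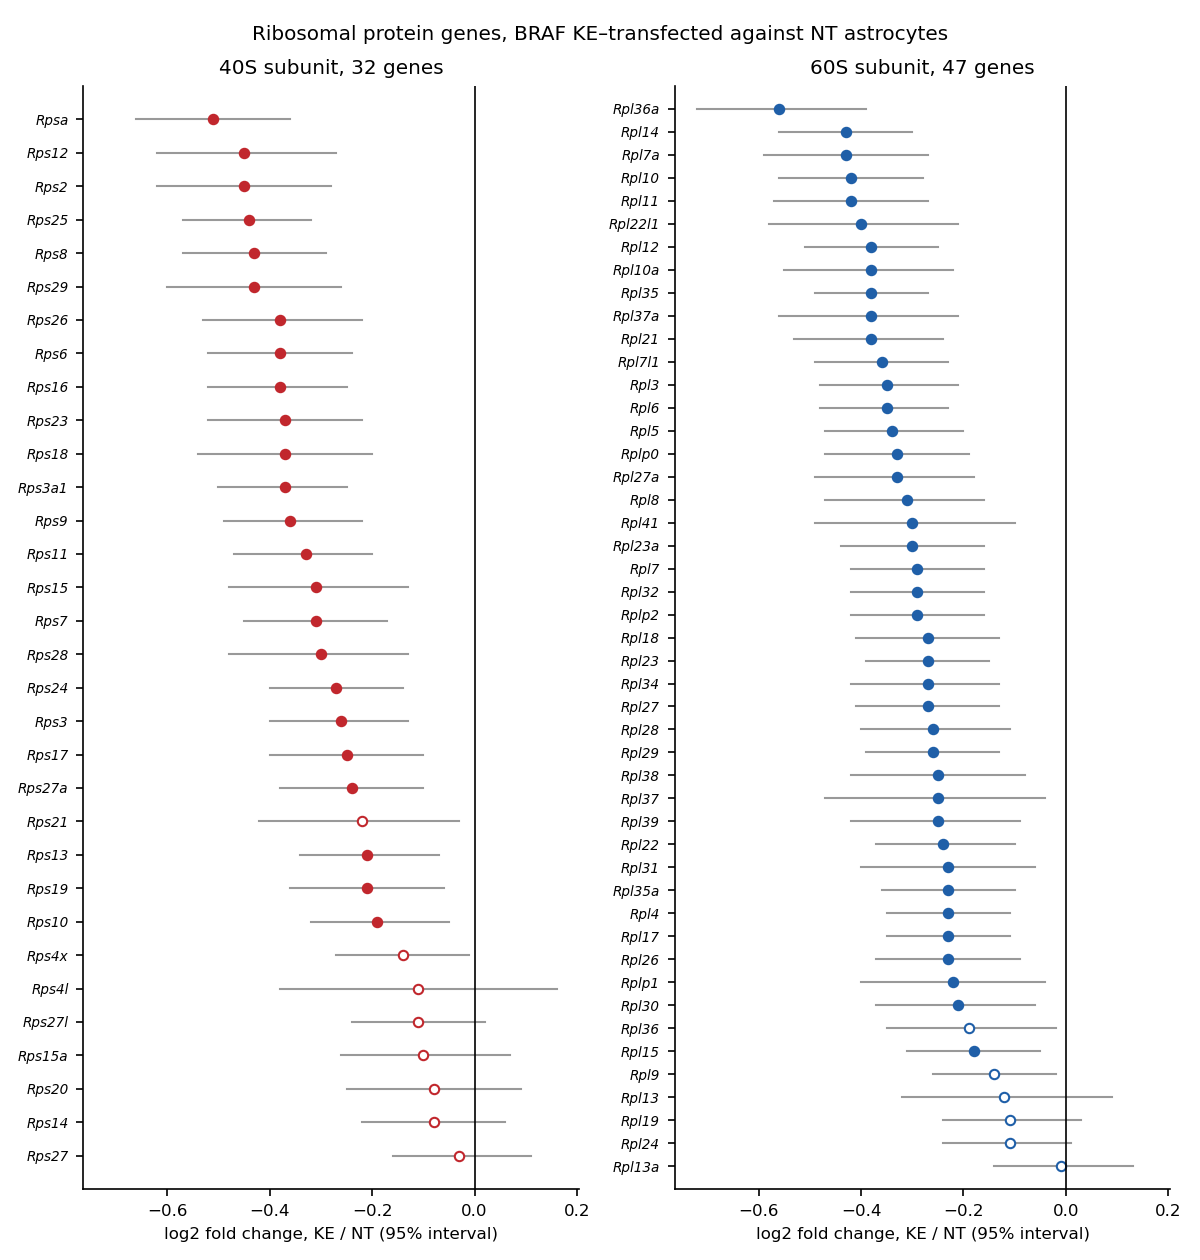
Log2 fold change of 32 genes of the 40S subunit (left) and 47 genes of the 60S subunit (right), KE over NT, with 95% intervals from limma as lines. Filled circles are the 65 downregulated genes, and open circles 14 of those that were not called. All circles lie below 0, from -0.56 for Rpl36a to -0.01 for Rpl13a.

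The members are abundant mRNAs, with a median normalized count of 10720 against 731 for all tested genes, and all 81 passed the filter on low genes (a mean of at least 10). Abundant genes were downregulated somewhat more often, so that they were used as a second background. Of 6432 tested genes with a mean of at least 1000, 29.2% were downregulated, and of 2386 with a mean of at least 3000, 31.6%. The median log2FC of the 6432 genes was -0.01. The members' changes were shallow and closely grouped. The middle portion between the quartiles ran from -0.37 to -0.22, only 2 members fell beyond -0.5, and the median size of change over all tested genes, in either direction, was 0.3.

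**Figure D2:**
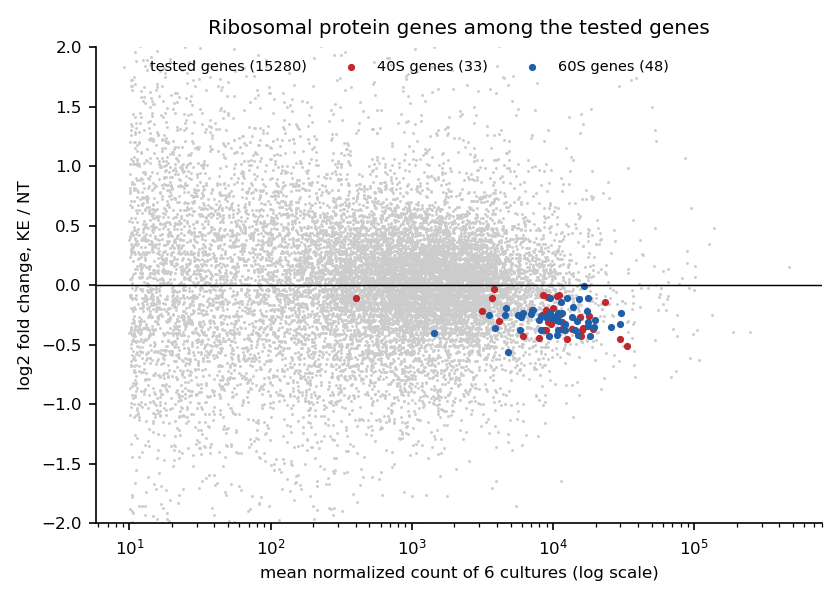
Log2 fold change (KE over NT) against mean normalized count on a log scale for the 15280 tested genes in grey and the ribosomal protein genes in color; 624 tested genes lie outside the plotted range of -2 to 2. The members form a band at high counts below 0, with Rps4l and Rpl22l1 at lower counts.

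Rpl36a, which encodes a 60S protein at the site where spent tRNA leaves the ribosome, showed the largest fall in the main analysis. After quantile normalization the fall of Rpsa was larger, with a log2FC of -0.61 against -0.57 for Rpl36a. Rpl36a (ENSMUSG00000079435) lies at chrX:133486372-133488901 on the plus strand of GRCm39. Its normalized counts were 4321, 3975 and 3460 in KE replicates 1 to 3 and 5691, 5758 and 5787 in NT replicates 1 to 3. All KE values lay below all NT values, with means of 3919 ± 433.3 and 5745 ± 49.2 (SD, n = 3), and the log2FC was -0.56 ± 0.08 (SE; limma adjusted p = 1.1e-04), a fall of 32.1%. Its intronless copy Rpl36al, which encodes a nearly identical protein and whose reads the quantification may not separate fully, had a log2FC of -0.33 (adjusted p = 0.00244).

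Rpsa, which encodes a 40S protein also known as the laminin receptor, had the largest fall among the small subunit genes. It (ENSMUSG00000032518) lies at chr9:119956755-119962787 on the plus strand, and its counts were 29064, 28865 and 24803 in KE and 39507, 38527 and 39507 in NT. Groups were widely apart relative to their spread, with means of 27577 ± 2405 and 39180 ± 565.9 (SD, n = 3). The log2FC was -0.51 ± 0.07 (adjusted p = 1.2e-04).

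Rps2 lies on the 40S surface where mRNA enters the ribosome. Its counts were 25299, 27727 and 22532 in KE and 33305, 36452 and 33219 in NT, with a log2FC of -0.45 ± 0.08 (adjusted p = 6.8e-04). Rps12, a protein of the 40S head, had counts of 11724, 10785 and 9200 in KE and 14222, 14586 and 14273 in NT, with a log2FC of -0.45 ± 0.08 (adjusted p = 7.3e-04). In both genes KE replicate 3 was the lowest culture, and the groups did not overlap.

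Rps25, a 40S protein known for its role in initiation at viral internal ribosome entry sites, had the smallest SE among these 6 genes. Its counts were 7193, 6502 and 6612 in KE and 9421, 9204 and 8947 in NT, and the log2FC was -0.44 ± 0.06 (adjusted p = 7.8e-05). Rpl7a, a 60S protein gene whose introns carry small nucleolar RNAs, had counts of 15155, 17184 and 14017 in KE and 21158, 20946 and 20273 in NT. Its log2FC was -0.43 ± 0.07 (adjusted p = 5.2e-04). The groups were separate in both genes, and in Rps25 the lowest culture was KE replicate 2.

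Normalized counts are not divided by transcript length, so that expression levels were compared between members per kilobase of coding sequence. On that scale Rpl41, which encodes the shortest ribosomal protein, was highest among the 80 members with a coding length, with 146739 normalized counts per kilobase. Rpl22l1 was lowest among them, with 3979, and their median was 22856. Rps4l, the member with the lowest count, had no coding length and was not ranked. Rpl41 was downregulated (log2FC -0.30 ± 0.09, adjusted p = 0.0158), although its groups overlapped narrowly, with 9933, 11071 and 8672 in KE and 12719, 12599 and 11039 in NT. The log2FC of the members was only loosely related to their count or length. Its Spearman correlation was -0.17 with the log2 mean count (n = 81) and -0.17 with coding length (n = 80), across genes that were measured in the same libraries. In the lowest, middle and highest 27 members by mean count, 21, 21 and 23 were downregulated, with median log2FC of -0.25, -0.27 and -0.33.

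Rpl4, Rplp0 and Rpl3, besides Rpsa and Rps2, had the highest counts before any correction for length. Per kilobase of coding sequence, Rpl4 (24004) and Rpl3 (21367) lay close to the median of the members. Rpl4 encodes a protein that lines the tunnel through which the new peptide leaves, and its counts were 28721, 27738 and 26877 in KE and 32826, 32311 and 32566 in NT (log2FC -0.23 ± 0.06, adjusted p = 0.00503). Rpl3, which reaches toward the site of peptide bond formation, had counts of 23732, 23302 and 21240 in KE and 28410, 29322 and 28990 in NT (log2FC -0.35 ± 0.06, adjusted p = 6.4e-04). Neither gene showed an overlap between groups.

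The 3 genes of the ribosomal stalk, the flexible arm that recruits the elongation factors, were all downregulated. Rplp0, its base, had counts of 26881, 28094 and 24549 in KE and 33417, 33734 and 32658 in NT (log2FC -0.33 ± 0.06, adjusted p = 0.00126). Rplp1 and Rplp2, the acidic proteins bound to it, had a log2FC of -0.22 ± 0.08 (adjusted p = 0.0396) and -0.29 ± 0.06 (adjusted p = 0.00149). All KE cultures were below all NT cultures in each of the 3 genes, but the call of Rplp1 was lost under 5 of the 15 alternatives, among them leaving out KE replicate 3 or any NT replicate.

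Rps6 is the ribosomal protein that S6 kinases and RSK phosphorylate downstream of mTOR and ERK. Its gene (ENSMUSG00000028495, chr4:86748406-86775674, minus strand, GRCm39) had counts of 15028, 13861 and 12898 in KE and 18348, 17849 and 18102 in NT. The KE values were all lower, with means of 13929 ± 1067 and 18099 ± 249.3 (SD, n = 3), and the log2FC was -0.38 ± 0.06 (adjusted p = 4.7e-04). These are mRNA levels and say nothing of phosphorylation.

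Rpl5 and Rpl11 form a particle with 5S ribosomal RNA that also binds Mdm2 when ribosome assembly is disturbed, which links the ribosome to p53. Rpl5 counts were 16188, 16259 and 14468 in KE and 20058, 19424 and 19657 in NT (log2FC -0.34 ± 0.06, adjusted p = 8.3e-04). Rpl11 counts were 9672, 9583 and 8277 in KE and 12488, 12291 and 12009 in NT (log2FC -0.42 ± 0.07, adjusted p = 3.3e-04). Both genes were thus downregulated without overlap between groups.

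Rpl10 joins the 60S subunit as one of the last steps of its maturation in the cytoplasm. Its counts were 14067, 12517 and 12218 in KE and 17353, 16819 and 17604 in NT, with a log2FC of -0.42 ± 0.06 (adjusted p = 2.5e-04). Rps19, the gene most often mutated in Diamond-Blackfan anemia, had 8614, 8818 and 7434 in KE and 9773, 9446 and 9561 in NT, with a smaller fall (log2FC -0.21 ± 0.07, adjusted p = 0.0213). Rps3, a 40S protein at the mRNA entry that also takes part in DNA repair, had a log2FC of -0.26 ± 0.06 (adjusted p = 0.00386). In all 3 genes each KE culture was below each NT culture, and the call of Rps19 was lost under 3 alternatives, including without KE replicate 3 and without NT replicate 1.

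**Figure D3:**
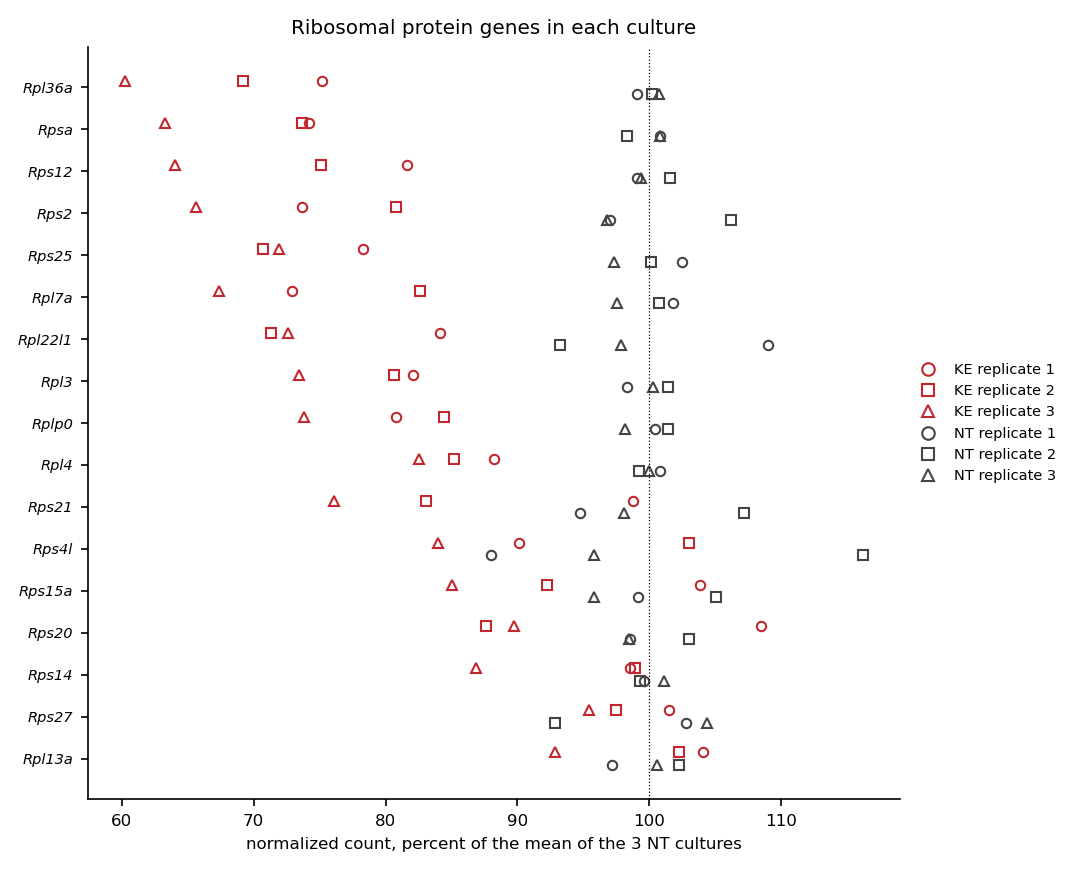
Normalized count of 17 members in each culture as a percent of the mean of the 3 NT cultures, with KE in red and NT in dark grey and 1 symbol per replicate number. The members shown are those with the largest falls, the highest and lowest counts and the smallest falls. KE replicate 3 (red triangle) is the lowest KE culture in most of them, and at the bottom, in Rpl13a and Rps27, the groups overlap.

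The 16 members that were not called all had a fitted log2FC below 0, and 9 of them belonged to the 40S subunit. Rpl13a, a 60S protein that is also part of a translation-silencing complex induced by interferon, had the smallest difference. Its counts were 17187, 16880 and 15323 in KE and 16044, 16884 and 16605 in NT. The groups overlapped, with KE replicate 1 the highest and KE replicate 3 the lowest of all 6 cultures, and the log2FC was -0.01, with a 95% interval of -0.14 to 0.13 (adjusted p = 0.944). Rps27 had counts of 3917, 3761 and 3682 in KE and 3967, 3582 and 4026 in NT, again with overlap, and a log2FC of -0.03 with an interval of -0.16 to 0.11 (adjusted p = 0.753). Its reads can be shared with the copy Rps27rt, which had a log2FC of -0.14 (adjusted p = 0.345).

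Some other members without a call lay close to the threshold. Rpl9 (log2FC -0.14, adjusted p = 0.0503), Rpl36 (-0.19, adjusted p = 0.0576) and Rps4x (-0.14, adjusted p = 0.0632) had all KE values below all NT values. So did Rpl24 (-0.11, adjusted p = 0.115) and Rps14 (-0.08, adjusted p = 0.301), which lay further from the threshold. Rps21 had counts of 3352, 2818 and 2581 in KE and 3215, 3636 and 3327 in NT, which overlapped, and a log2FC of -0.22 (adjusted p = 0.0577). A missed threshold does not show that these genes were alike in the groups, since the intervals of Rpl9, Rpl36, Rps4x and Rps21 end just below 0. In the opposite case, Rpl41 and Rpl37 were called although 1 KE value exceeded an NT value. Of the 15 alternatives run, 7 ended the call of Rpl37 (adjusted p = 0.0496) and 4 that of Rpl41. In all, every KE culture was below every NT culture in 68 members, compared with 29.9% of the tested genes.

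Pairs of paralogs did not always move by the same amount, although the differences within pairs were not tested. Rpl22, which is dispensable in many cell types, had a log2FC of -0.24 ± 0.06 (adjusted p = 0.00802), and its low-level paralog Rpl22l1 one of -0.40 ± 0.08 (adjusted p = 0.00239), with counts of 1380, 1170 and 1192 in KE and 1788, 1530 and 1606 in NT. Rpl7 and its nucleolar paralog Rpl7l1 had log2FC of -0.29 and -0.36 (adjusted p = 0.00201 and 4.7e-04). In the pair Rps27 and Rps27l, the latter a gene induced by p53, neither was called, and Rps27l had a log2FC of -0.11 (adjusted p = 0.138). Rps4l, a single-exon copy of Rps4x and the member with the lowest count, had 376.7, 430.5 and 351.0 in KE and 367.9, 485.8 and 400.6 in NT (log2FC -0.11, adjusted p = 0.48). Its reads may be shared with Rps4x, so that its values are uncertain.

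The level that admitted a gene separated the members clearly from the rows left out. Just inside were Rps4l, Rpl22l1 and Rps21, with mean counts of 402.1, 1444 and 3155. Just outside were Rps3a2, Rpl6l and Rps3a3, with means of 51.1, 23.9 and 11.8, and 5 further matching rows were lower still. Among these, Rps12l1 was 70.2 in NT replicate 1 and 0 in the other cultures, and Rpl10l was 0 in all 6. Processed pseudogenes with ribosomal names were a small fraction of the signal. The 322 such rows summed to 2843 to 3034 in KE and 3473 to 4221 in NT, or 0.36% of the members' counts. Of the 46 tested, 12 were downregulated, a share close to the 26.0% of all tested genes. Only 1 was upregulated, against 25.3% of all tested genes. The median log2FC of the tested pseudogenes was -0.48, compared with -0.27 for the members.

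Summed over the members, ribosomal protein mRNA took up a smaller share of all normalized counts in KE. The share was 2.93%, 2.90% and 2.60% in KE replicates 1 to 3 and 3.46%, 3.48% and 3.43% in NT replicates 1 to 3. The groups did not overlap, and their means were 2.81% ± 0.182 and 3.46% ± 0.025 (SD, n = 3), a difference of -0.647 percentage points. With Braf and the mitochondrially encoded genes taken out of the total, the difference was -0.673 percentage points. The share of the 40S genes was 1.12% ± 0.074 in KE and 1.40% ± 0.006 in NT, and that of the 60S genes 1.69% ± 0.11 and 2.06% ± 0.015.

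**Figure D4:**
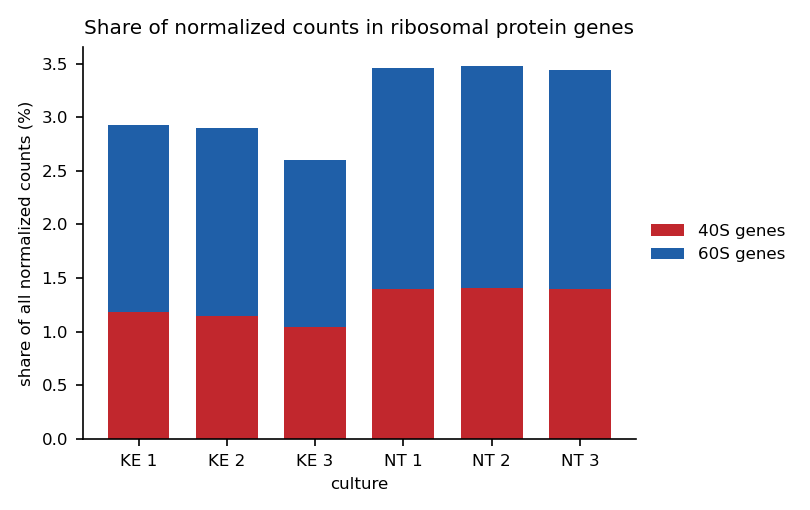
Share of all normalized counts, in percent, that fell in the 33 genes of the 40S subunit (red) and the 48 genes of the 60S subunit (blue) in each culture. The 3 KE cultures reach 2.60% to 2.93% and the 3 NT cultures 3.43% to 3.48%.

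Both subunits took part. Of the 33 genes of the 40S subunit, 24 were downregulated, with a median log2FC of -0.30 and no overlap between groups in 26. Of the 48 genes of the 60S subunit, 41 were downregulated, with a median of -0.27 and no overlap in 42. Over all tested genes, 26.0% were downregulated and 29.9% had every KE value below every NT value. The ratio of summed 60S to 40S counts was 1.486, 1.526 and 1.5 in KE and 1.475, 1.467 and 1.460 in NT. It was thus slightly higher in every KE culture, by 0.037 on average, a difference that was not tested.

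The KE cultures differed more among themselves than the NT cultures. The median coefficient of variation of the members was 7.7% in KE and 2.3% in NT, and it was larger in KE for 75 members. KE replicate 3 was the lowest of the 6 cultures in 71 members and below every NT culture in 80. KE replicate 2 was lowest in 9 and NT replicate 2 in 1. Against the NT mean, the median member stood at -0.21, -0.25 and -0.40 on the log2 scale in KE replicates 1 to 3. The fall did not rest on KE replicate 3 alone. Without KE replicate 3 the count of downregulated members was 55, where 23.8% of all tested genes were downregulated, and the median log2FC was -0.22. KE replicate 1 was below every NT culture in 72 members and KE replicate 2 in 73. For such counts of single cultures, no share over all tested genes was computed. Braf was also highest in KE replicate 3, at 40978 compared with 35025 and 34933 in KE replicates 1 and 2. Whether the level of the transgene bears on the members was not tested.

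Components of the cytosolic ribosome whose names fall outside the naming pattern were listed separately, and 3 of the 6 were downregulated, none was upregulated and 3 were not called, where 26.0% of all tested genes were downregulated and 25.3% upregulated. Rack1, a 40S scaffold protein for signaling kinases, had counts of 18219, 19010 and 15451 in KE and 23002, 23149 and 23290 in NT (log2FC -0.40 ± 0.07, adjusted p = 9.9e-04). Rps27a, the member that encodes ubiquitin fused to a 40S protein, had a log2FC of -0.24 (adjusted p = 0.00793). Fau, a fusion of a ubiquitin-like protein with a 40S protein, had a log2FC of -0.19 and missed the threshold (adjusted p = 0.0545). The list also holds Rpl36al, Rps27rt and Rpl37rt, of which the first was downregulated.

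Other genes known for 5′ TOP mRNAs formed the next group, which holds translation factors along with histone and nascent-chain chaperones, Hnrnpa1, Npm1 and a noncoding RNA, and 12 of 20 were downregulated, 1 was upregulated and 7 were not called (median log2FC -0.25), where 26.0% of all tested genes were downregulated and 25.3% upregulated. Eef1a1, which brings aminoacyl-tRNA to the ribosome, had counts of 164959, 170720 and 150660 in KE and 215594, 214640 and 205748 in NT (log2FC -0.39 ± 0.08, adjusted p = 0.00178), although after quantile normalization its log2FC was -0.09 (limma adjusted p = 0.717). Eef2, which moves the ribosome along the mRNA, had a log2FC of -0.12 and was not called (adjusted p = 0.151). The largest fall was that of Nap1l1, a histone chaperone (log2FC -0.83 ± 0.06, adjusted p = 1.6e-06), and the exception was Gas5, a noncoding host gene of small nucleolar RNAs, which was higher (0.27 ± 0.07, adjusted p = 0.00747). The 3 largest falls were in genes that are not translation factors, Nap1l1, Hnrnpa1 (-0.78) and Npm1 (-0.63).

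Of 24 initiation factors tested, 11 were downregulated (45.8%, against 26.0% of all tested genes), 2 were upregulated (8.3%, against 25.3%) and 11 were not called. The log2FC was below 0 in 19, with a median of -0.14. Eif4a1, the RNA helicase of the cap-binding complex, fell most, from 37358, 35959 and 37162 in NT to 26661, 26427 and 24368 in KE (log2FC -0.51 ± 0.06, adjusted p = 3.3e-05). Eif2b2, a subunit of the exchange factor for eIF2, was higher in KE (log2FC 0.51 ± 0.08, adjusted p = 3.5e-04).

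Factors that assemble ribosomes in the nucleolus made up a list of their own, and 39 of 68 were downregulated (57.4%, against 26.0% of all tested genes), 3 were upregulated (4.4%, against 25.3%) and 26 were not called (median log2FC -0.25). Ncl, nucleolin, had counts of 19642, 18508 and 18791 in KE and 28545, 28047 and 28125 in NT (log2FC -0.57 ± 0.05, adjusted p = 6.5e-06), and Fbl, the methyltransferase fibrillarin, had a log2FC of -0.54 ± 0.08 (adjusted p = 1.4e-04). The largest fall was in Dkc1, the pseudouridine synthase dyskerin, at -0.86. The largest rise was in Sbds, a factor of late 60S maturation, at 0.53. Among importins and chaperones that carry new ribosomal proteins, 5 of 10 were downregulated and 2 were upregulated, the latter a share near the 25.3% of all tested genes, with Ipo5 at -0.53 ± 0.05 (adjusted p = 8.8e-06) and Pdcd2 at 0.28 ± 0.10 (adjusted p = 0.0429). The call of Pdcd2 was lost under 7 of the 15 alternatives.

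RNA polymerase I transcribes the large ribosomal RNAs. Of 14 tested genes of its machinery, 2 were downregulated (14.3%, against 26.0% of all tested genes), 1 was upregulated (7.1%, against 25.3%) and 11 were not called, and 11 had a log2FC below 0. Polr1a, the largest subunit of the enzyme, had a log2FC of -0.13 (adjusted p = 0.0879), and Polr1b, the second largest, one of -0.54 ± 0.09 (adjusted p = 5.2e-04). Taf1a, of the promoter selectivity factor, was higher (0.28 ± 0.10, adjusted p = 0.0377), a call that 6 of the 15 alternatives ended.

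In the list of mTOR and S6 kinase genes, which regulate ribosomal protein synthesis, 4 of 14 were upregulated (28.6%), 2 were downregulated (14.3%) and 8 were not called, and the median log2FC was 0.03. The shares over all tested genes were 25.3% and 26.0%, so that the counts show no direction of the list. Mtor had counts of 2770, 2786 and 2792 in KE and 2497, 2544 and 2466 in NT (log2FC 0.15 ± 0.05, adjusted p = 0.0315), a call that 9 of the 15 alternatives ended. Larp1, which binds 5′ TOP mRNAs, had a log2FC of -0.04 with overlapping groups (adjusted p = 0.639). The S6 kinase genes Rps6kb1 and Rps6kb2 had a log2FC of -0.15 (adjusted p = 0.0505) and 0.03 (adjusted p = 0.874). The largest changes in the list were the rise of Akt1s1, an mTORC1 inhibitor (0.56 ± 0.07, adjusted p = 6.2e-05), and the fall of Eif4ebp2, a repressor of cap-dependent initiation (-0.63 ± 0.09, adjusted p = 1.3e-04).

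In the list of 8 RSK, MSK and MNK genes, which includes the kinases that act on Rps6 and Eif4e downstream of ERK, 2 were downregulated and 6 were not called. This share is close to the 26.0% of all tested genes that were downregulated and shows nothing particular to the list. Rps6ka6, which encodes RSK4, had counts of 169.2, 145.8 and 176.4 in KE and 495.7, 431.8 and 554.9 in NT (log2FC -1.58 ± 0.13, adjusted p = 1.8e-06), and Rps6ka1, which encodes RSK1, had a log2FC of -1.06 ± 0.07 (adjusted p = 3.7e-07). In the network of Myc, a transcription factor that activates ribosome genes, 3 of 10 genes were upregulated and 3 were downregulated, shares close to those over all tested genes. Myc counts were 1249, 1416 and 1264 in KE and 1591, 1745 and 1567 in NT (log2FC -0.32 ± 0.07, adjusted p = 0.00396). Mxd1, which opposes Myc at its target genes, was higher (0.97 ± 0.10, adjusted p = 1.9e-05), while Mxd3, of the same family, was lower (-0.72 ± 0.12, adjusted p = 6.0e-04).

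The mitochondrial ribosome is built from other proteins. Of its 78 genes, 11 were downregulated (14.1%), 12 were upregulated (15.4%) and 55 were not called, both shares below the 26.0% and 25.3% of all tested genes, and the median log2FC was -0.01. The extremes were Mrpl18 at -0.63 (adjusted p = 6.8e-06) and Mrpl27 at 0.61 (adjusted p = 5.3e-05). Among 7 genes of ribosome quality control, which clears stalled ribosomes, 1 was downregulated (14.3%, against 26.0% of all tested genes) and 6 were not called. The gene called was Ltn1, at -0.17 (adjusted p = 0.0413). The call of Ltn1 was lost under 7 of the 15 alternatives. Pooled, these lists outside the members held 259 tested genes, of which 28 were upregulated and 91 were downregulated, to be read against 25.3% and 26.0% of all tested genes.

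**Figure D5:**
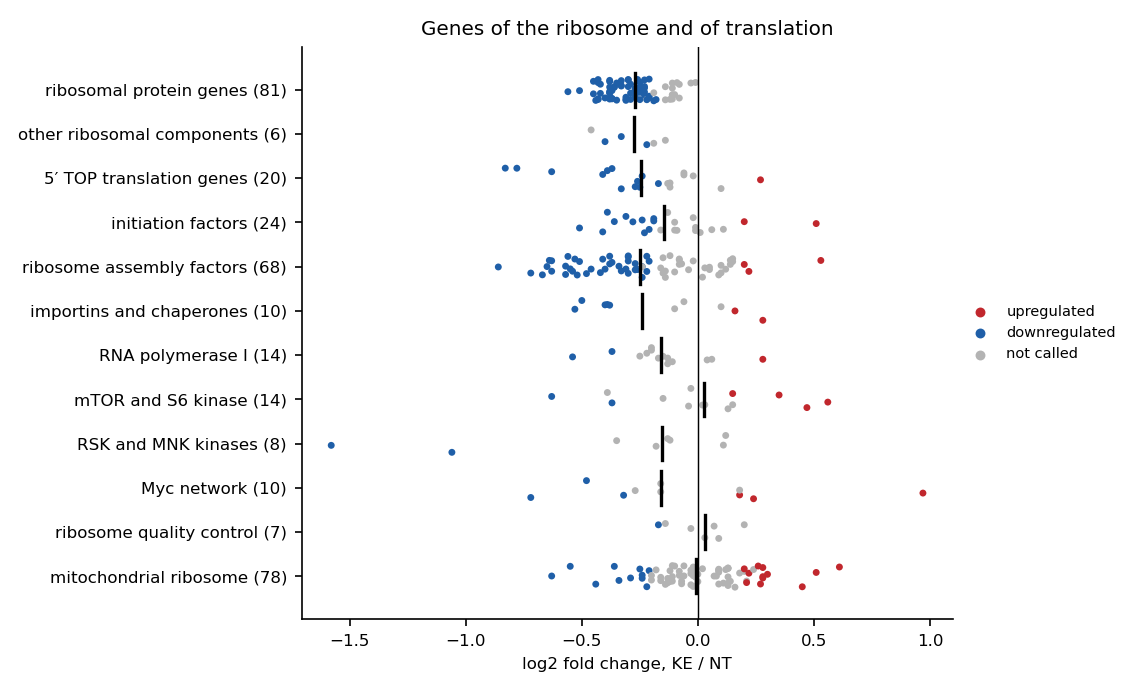
Log2 fold change (KE over NT) of each tested gene in the 81 members and in 11 lists of genes of the ribosome and of translation, with the number of genes in parentheses. Dots are genes, colored by their call, and black lines are medians, which range from -0.28 in the other ribosomal components to 0.03 in the lists of mTOR and S6 kinase genes and of ribosome quality control, with -0.27 in the members.

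Sequences upstream of the start were compared next, because genes that move together can share motifs. In windows of 250 bases before to 50 bases after the annotated start, CCGGAA, the core recognized by ETS factors, was found on either strand in 34 of 60 members (56.7%) and in 16.7% of all 27025 genes in the table. GGGCGG, bound by SP1, was found in 38 (63.3%) and 38.2%, and AAGATGG, bound by YY1, in 10 (16.7%) and 7.3%. TATAAA was found in 7 (11.7%) and 15.7%. Matches to CCGGAA and GGGCGG can overlap by a few bases, and GGGCGG is frequent in any promoter rich in G and C. CCGGAA was present in 30 of 50 downregulated members and in 4 of 10 that were not called, and the median log2FC was -0.30 with it and -0.29 without it. A match to these letters is a description and does not show that a factor was bound.

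The 120 bases before the start are shown for 3 downregulated members that hold CCGGAA and for the pair of members with the smallest differences. Rpl36a, Rps2, Rps12 and Rpl7a, which were among the 6 largest falls, hold no CCGGAA in these 120 bases and are not shown. Capitals mark CCGGAA in Rps6 and Rps25 and its form on the opposite strand in Rpsa. In Rps27 they mark AAGATGG, and in Rpl13a the form of GGGCGG on the opposite strand. All are RefSeq windows on GRCm38.p6, read 5′ to 3′ on the strand of the gene:
Rpsa, chr9:120127646-120127765, plus strand: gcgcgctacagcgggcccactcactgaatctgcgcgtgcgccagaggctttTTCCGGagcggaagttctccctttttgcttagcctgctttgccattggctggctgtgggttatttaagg
Rps6, chr4:86857368-86857487, minus strand: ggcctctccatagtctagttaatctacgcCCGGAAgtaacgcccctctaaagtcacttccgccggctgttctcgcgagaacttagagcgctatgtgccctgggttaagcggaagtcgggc
Rps25, chr9:44407594-44407713, plus strand: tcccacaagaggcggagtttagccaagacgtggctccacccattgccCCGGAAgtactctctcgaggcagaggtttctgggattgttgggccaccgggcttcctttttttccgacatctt
Rps27, chr3:90213649-90213768, minus strand: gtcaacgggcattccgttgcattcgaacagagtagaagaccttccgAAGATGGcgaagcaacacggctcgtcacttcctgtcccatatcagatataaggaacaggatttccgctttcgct
Rpl13a, chr7:45128746-45128865, minus strand: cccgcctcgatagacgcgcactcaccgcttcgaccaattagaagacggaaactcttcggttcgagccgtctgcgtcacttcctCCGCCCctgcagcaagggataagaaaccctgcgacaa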

How the data were processed

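Gene expression was measured by RNA-seq in 3 KE and 3 NT cultures, grouped by the sample labels. The authors deposited a normalized signal per gene and culture, gene counts divided by DESeq2's size factors and not by length. The supplemental methods name TrimGalore, STAR with GRCm39 and Gencode, and Salmon, in a paragraph that opens with other samples of the study and mentions the astrocytes at its fold change cutoff; the labels name the same tools but a human build, although the genes are mouse genes. That paragraph also mentions batches, which no source names. Depth is removed by this normalization, and whole reads could not be recovered, since only 75.2% to 77.7% of the low values came within 0.1 of whole multiples of a read, so that no count model was used.

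The deposited signal was put on the scale log2(value + 1) and analysed by limma (version 3.58.1, R 4.3.3) with a variance trend and only the group as a factor, for the 15280 genes with a mean of at least 10. Tests were two-sided, with Benjamini-Hochberg adjustment over all 15280. The fit was tested on simulated data. A fold change on the log2(value + 1) scale understates that of low genes, which bears on none of the members. SEs and intervals are from limma. Coordinates and coding lengths (shortest annotated coding sequence) were read from Gencode vM39 on GRCm39, and 54749 of 55357 identifiers were found.

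The members and gene lists were chosen with earlier results of these data known, and no list carries a test. Among the members, the text names the 6 largest falls, the 5 highest and 3 lowest means, paralog pairs and 12 genes of known role; Rpl41, Rpl37, Rps27a and the members that were not called were named after their values were seen. A few genes are counted but not reported by name here. Alternatives were pseudocounts of 0.5 and 10, other filters on low genes, 3 rescalings, limma without the trend, the replicate number as a block and leaving out each culture. The background of genes with a mean of at least 3000 was added after the data were seen.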

Additional observations from a re-analysis of the deposited data

How the results depend on the processing

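The fall of the ribosomal protein genes kept its direction and the count of called genes stayed within 1.5 times the main value under all alternatives run. The count of downregulated members lay between 54 (limma without the trend) and 71 (quantile normalization), with 0 upregulated under each, and the median log2FC between -0.33 and -0.22. Of all tested genes, 23.5% were downregulated without the trend and 24.7% after quantile normalization. When each culture was left out in turn, 55 (without KE replicate 3) to 70 (without KE replicate 1) members were downregulated. Of all tested genes, 23.8% were downregulated without KE replicate 3 and 22.9% without KE replicate 1. Of the 65 downregulated members, 54 were called under every alternative, and 9 members, among them Rpl13, Rps27l, Rps4l, Rps15a, Rps14, Rps27 and Rpl13a, under none. The 11 whose call was lost under at least 1 alternative were Rpl15, Rpl30, Rpl31, Rpl37, Rpl38, Rpl39, Rpl41, Rplp1, Rps10, Rps13 and Rps19, all of them without the trend and all but Rps13 when 1 culture was left out. Among other genes named, calls were lost under 9 alternatives for Mtor, 7 for Ltn1 and Pdcd2, 6 for Taf1a and 1 (quantile normalization) for Eef1a1, and gained under 4 for Rps6kb1, 3 for Fau and 2 for Polr1a. All 81 members had a log2FC below 0 under each scaling, and the median of all tested genes moved at most to 0.029. At or above 0 were only Rpl13a without KE replicate 3 or NT replicate 2, Rps4l without NT replicate 2 and Rps27 without NT replicate 3. With the replicate number as a block, 68 members were downregulated, where 26.7% of all tested genes were downregulated. Same-numbered cultures deviated together with correlations of 0.059 to 0.066 only, so that the numbers were not taken to pair the cultures. Counting error cannot be computed from normalized values, and 3 cultures per group limit the precision to an SE of 0.05 to 0.12 on the log2 scale.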
